A study of Mus musculus with 56 samples.

Results

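The 9 genes described here regulate the oligodendrocyte lineage or mark its precursor cells: the transcription factors Olig1, Olig2, Sox10, Nkx2-2 and Myrf, the receptors Pdgfra and Gpr17, and the chondroitin sulfate proteoglycans Cspg4 and Vcan. They were listed by name, with earlier results of these data known, and make up 9 of the 43629 genes in the count tables. All 9 passed the filter on low counts, which left 18838 genes. The data come from translating ribosome affinity purification (TRAP) of motor neurons in the mouse spinal cord, followed by RNA sequencing. In MN-TRAP, ribosomes that carry a tag made only in cells using the Chat promoter are captured, so the RNA bound to them is enriched for messages under translation in cholinergic motor neurons, and whole spinal cord RNA is the input.

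All mice carried Chat bacTRAP, a transgene that expresses the ribosomal protein L10a fused to EGFP from a bacterial artificial chromosome with the Chat gene. The hTDP-43 A315T mice also carried human TDP-43 with the A315T substitution under the prion promoter, and were sampled at 14 weeks (4 MN-TRAP and 4 spinal cord libraries) and at 9 weeks (5 and 5). The hTDP-43 WT mice carried unmutated human TDP-43 under the same promoter (5 and 5 libraries at 14 weeks, 3 and 6 at 9 weeks). The Chat bacTRAP mice carried no TDP-43 transgene (4 and 5 libraries at 14 weeks, 4 and 6 at 9 weeks). The lines are congenic with C57BL/6J and the study used females, sampled in the early phase of motor symptoms (14 weeks) and before it (9 weeks). The labels place the tissue in the cervical cord, where the study's methods speak of the spinal cord. The prion promoter is active in many cell types, so the TDP-43 transgenes were not confined to motor neurons. The labels do not say that replicates came from separate animals, so p-values measure the spread between these libraries. The study kept a part of each lysate as the input, so an MN-TRAP and a spinal cord library can come from the same animal. The main model took all libraries as independent and gave each gene 1 estimate of spread over both fractions. The members varied more in MN-TRAP (coefficient of variation 44.2% to 100.8% over its libraries) than in spinal cord (16.4% to 34.4%). The p-values of genotype comparisons in MN-TRAP can therefore be too small.

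Library totals ran between 472447 and 255802240 counts in MN-TRAP (median 19553070, n = 25) and between 17493897 and 86654485 in spinal cord (median 40384236, n = 31). The shallowest was hTDP-43 WT MN-TRAP replicate 1 at 9 weeks, in which Nkx2-2 and Cspg4 had 0 counts. The pseudogene Lamr1-ps1 was higher in hTDP-43 A315T libraries than in most control libraries. Its level was taken as CPM (counts scaled to the size of the library). It was above 0.3 CPM in all 18 hTDP-43 A315T libraries, in 2 of 19 hTDP-43 WT libraries and in 1 of 19 Chat bacTRAP libraries. The highest control levels, 1.69 CPM in hTDP-43 WT and 1.34 CPM in Chat bacTRAP, lay within the hTDP-43 A315T range (0.480 to 2.93 CPM). Those control libraries are not named here, and whether their labels are right was not tested. The Y-linked gene Ddx3y was above 0.3 CPM in 2 Chat bacTRAP libraries, where its highest level was 51.0 CPM. The highest Ddx3y level was 0.124 CPM in the hTDP-43 WT line and 0.122 CPM in the hTDP-43 A315T line. A level of 51.0 CPM conflicts with a study of females alone, and the labels were kept. The 2 libraries are not named here, so their weight in the comparisons with Chat bacTRAP cannot be judged. In earlier results, 4 control MN-TRAP libraries stood apart from their groups (hTDP-43 WT replicate 5 at 14 weeks and replicate 3 at 9 weeks, Chat bacTRAP replicate 4 at each age), and counts of called genes are given with and without them where they matter. Each of these 4 held the lowest Olig2 level of its group, so calls made without them are not independent of their choice. All 8 motor neuron markers, among them Chat, Slc5a7, Slc18a3 and Prph, were higher in MN-TRAP than in spinal cord in each genotype (median log2 change 3.32, 3.15 and 3.13 in hTDP-43 A315T, hTDP-43 WT and Chat bacTRAP), and all 16 mature myelin genes and all 9 astrocyte genes tested were lower.

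Oligodendrocytes arise from precursor cells that stay in the adult spinal cord, divide in response to platelet-derived growth factor and give rise to myelinating cells. Olig2 is the basic helix-loop-helix factor that specifies both motor neurons and oligodendrocyte precursors in the ventral progenitor domain of the embryo, and in the adult it is kept in the oligodendrocyte lineage. Olig1 is its close relative and neighbour in the genome. Sox10 and Nkx2-2 act downstream of the Olig factors, and Myrf switches on the myelin genes in postmitotic oligodendrocytes. Pdgfra is the growth factor receptor of the precursors, Cspg4 encodes their surface proteoglycan NG2, which pericytes also make, Gpr17 is a receptor found for a short time in cells committed to differentiate, and Vcan encodes versican, a proteoglycan of the precursor surface and the extracellular matrix.

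The members differ in base composition, which is set beside their levels in spinal cord further on. GC made up 61.8% of the longest transcript of Sox10, 61.1% of that of Olig1, 48.1% of that of Pdgfra and 43.7% of that of Vcan, where the quartiles over all genes were 44.9% and 54.4%. The first 150 bases of the longest coding exon of each of these genes show the contrast. They were taken from the GENCODE transcripts of GRCm38 and are written 5′ to 3′ on the coding strand, with G and C in capitals. The Sox10 stretch lies in exon 5 of 5 at chr15:79156492-79156641, minus strand, and is 66% GC. The Olig1 stretch opens the coding sequence in exon 1 at chr16:91269877-91270026, plus strand, and is 62% GC. The Pdgfra stretch lies in exon 3 of 23 at chr5:75163535-75163684, plus strand (53.3% GC), and the Vcan stretch in exon 8 of 15 at chr13:89693352-89693501, minus strand (37.3% GC).
Sox10: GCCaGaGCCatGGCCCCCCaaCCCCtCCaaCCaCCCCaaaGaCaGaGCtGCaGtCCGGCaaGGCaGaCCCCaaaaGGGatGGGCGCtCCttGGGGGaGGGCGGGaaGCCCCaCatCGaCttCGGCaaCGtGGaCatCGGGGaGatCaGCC
Olig1: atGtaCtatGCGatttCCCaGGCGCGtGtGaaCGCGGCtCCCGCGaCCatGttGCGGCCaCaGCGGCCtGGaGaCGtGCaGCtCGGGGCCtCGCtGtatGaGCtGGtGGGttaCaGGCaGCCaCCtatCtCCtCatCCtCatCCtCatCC
Pdgfra: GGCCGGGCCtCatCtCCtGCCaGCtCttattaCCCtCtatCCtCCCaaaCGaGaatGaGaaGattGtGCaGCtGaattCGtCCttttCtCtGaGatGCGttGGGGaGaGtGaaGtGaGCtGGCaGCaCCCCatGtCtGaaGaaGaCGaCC
Vcan: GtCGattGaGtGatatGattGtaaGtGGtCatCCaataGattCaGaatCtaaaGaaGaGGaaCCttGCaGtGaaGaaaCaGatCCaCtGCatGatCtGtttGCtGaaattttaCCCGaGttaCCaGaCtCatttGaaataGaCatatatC

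Sequence upstream of the genes is shown for Olig2, the member with the lowest level in hTDP-43 A315T MN-TRAP relative to Chat bacTRAP at 14 weeks, and for Cspg4, the member that kept apart from the others in MN-TRAP. It comes from RefSeq's GRCm38.p6 promoter table, in which 5 of the 9 members were found, cut so that it ends before the gene starts in either annotation. The motifs searched on both strands were CANNTG, the E-box that basic helix-loop-helix factors bind, ACAAT, a core of the sites of Sox factors, and GGGCGG, the GC box, and matches stand in capitals. The Olig2 stretch (chr16:91225300-91225456, plus strand, 157 bases, 66.9% GC) held none of the 3 motifs, where 50.8%, 19.3% and 17.6% of all 32851 promoters held them in a stretch of that length. The Cspg4 stretch (chr9:56864854-56865032, plus strand, 179 bases, 60.3% GC) held 1 ACAAT and 2 GGGCGG on the minus strand, which 21.5% and 20.9% of promoters of that length also held, and no CANNTG, held by 55.3%.
Olig2: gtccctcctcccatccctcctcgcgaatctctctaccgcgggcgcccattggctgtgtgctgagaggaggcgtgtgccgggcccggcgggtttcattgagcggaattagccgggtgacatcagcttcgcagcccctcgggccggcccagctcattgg
Cspg4: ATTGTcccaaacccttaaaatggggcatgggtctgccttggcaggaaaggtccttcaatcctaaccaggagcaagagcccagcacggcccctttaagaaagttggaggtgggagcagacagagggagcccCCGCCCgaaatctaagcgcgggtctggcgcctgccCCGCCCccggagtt

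The genes lie on 8 chromosomes of GRCm38. Olig1 (ENSMUSG00000046160) is at chr16:91269772-91271933 on the plus strand, a gene with 1 exon, and Olig2 (ENSMUSG00000039830) lies beside it at chr16:91225457-91228677, plus strand. Sox10 (ENSMUSG00000033006) is at chr15:79154908-79165240 and Nkx2-2 (ENSMUSG00000027434) at chr2:147177546-147194243, both on the minus strand. Myrf (ENSMUSG00000036098) is at chr19:10208272-10240748 on the minus strand, with 26 merged exons. Pdgfra (ENSMUSG00000029231) is at chr5:75152292-75198215 and Cspg4 (ENSMUSG00000032911) at chr9:56865033-56899870, both on the plus strand. Gpr17 (ENSMUSG00000052229) is at chr18:31942997-31949636 and Vcan (ENSMUSG00000021614) at chr13:89655312-89742509, both on the minus strand. Nkx2-2 shares 278 exonic bases with the antisense gene Nkx2-2os (9.67% of its exonic length) and Gpr17 shares 188 with Lims2 (3.62%). Counting was not stated to use strand, so reads in these stretches cannot be assigned to either gene with certainty.

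Levels can be compared between genes as CPM per kilobase of exon. In MN-TRAP, Olig1 had the highest median level (24.9 CPM per kilobase), followed by Sox10 (6.10), Olig2 (4.53) and Myrf (2.48). Gpr17 (1.11) and Nkx2-2 (0.726) came next, and Pdgfra (0.450), Cspg4 (0.203) and Vcan (0.134) were lowest. In spinal cord the medians were 186 for Olig1, 68.2 for Sox10, 33.9 for Olig2, 19.6 for Myrf, 7.39 for Gpr17, 6.09 for Nkx2-2, 2.21 for Pdgfra, 1.20 for Vcan and 0.689 CPM per kilobase for Cspg4, the same order but for the last pair. Gpr17 and Nkx2-2 in spinal cord lay within the spread of each other's libraries (4.89 to 11.99 and 4.01 to 9.64 CPM per kilobase). Over libraries, the coefficient of variation of the normalized counts lay between 44.2% (Myrf) and 100.8% (Pdgfra) in MN-TRAP and between 16.4% (Olig2) and 34.4% (Vcan) in spinal cord.

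MN-TRAP was compared with spinal cord in each genotype to see how far transcripts of the oligodendrocyte lineage were depleted by the motor neuron purification. Every member had a lower mean in MN-TRAP than in spinal cord in each genotype, and for 8 of the 9, all but Cspg4, the fitted change was most negative in hTDP-43 A315T mice. A gene was called when edgeR's quasi-likelihood test gave a Benjamini-Hochberg adjusted p below 0.05 over all genes tested and the change was at least 2-fold. By this rule 8 of 9 members were lower in MN-TRAP in hTDP-43 A315T mice, where 24.1% of all genes tested were called lower. In hTDP-43 WT mice 8 of 9 were called lower (19.8% of all genes), and in Chat bacTRAP mice 9 of 9 (22.8% of all genes). In bulk samples, fewer cells of a type and less RNA per cell cannot be told apart, and the values below are levels of the whole sample.

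Among the transcription factors, Olig1 had normalized counts between 775 and 2071 (median 906) in the 9 hTDP-43 A315T MN-TRAP libraries, against 8947 to 14383 (median 11275) in the 9 spinal cord libraries. Between 897 and 6616 (median 2485) were counted in the 8 hTDP-43 WT MN-TRAP libraries, against 6524 to 14254 (median 10611) in 11 spinal cord libraries. In Chat bacTRAP mice they were 1039 to 5234 (median 1694) in 8 MN-TRAP libraries, against 7435 to 14003 (median 11356) in 11 spinal cord libraries. The fractions did not overlap in hTDP-43 A315T and Chat bacTRAP mice, and in hTDP-43 WT mice 1 MN-TRAP library, replicate 3 at 14 weeks, reached the lowest spinal cord library. The log2 change was -3.24 ± 0.30 in hTDP-43 A315T, -1.67 ± 0.29 in hTDP-43 WT mice and -2.13 ± 0.29 in Chat bacTRAP mice (SE, adjusted p = 2.1e-13, 4.0e-06 and 1.8e-08 by edgeR).

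Olig2 showed the same separation, with 129 to 287 normalized counts (median 148) in hTDP-43 A315T MN-TRAP against 1694 to 3086 (median 2424) in spinal cord. It had 138 to 1173 (median 380) in hTDP-43 WT MN-TRAP against 1703 to 2752 (median 2246) in spinal cord, and 171 to 1576 (median 408) in Chat bacTRAP MN-TRAP against 1926 to 3023 (median 2399) in spinal cord. The fractions overlapped in no genotype. Its log2 change was -3.52 ± 0.30, -2.01 ± 0.30 and -1.93 ± 0.28 in hTDP-43 A315T, hTDP-43 WT and Chat bacTRAP mice (SE). MN-TRAP levels came to 8.002% of the spinal cord mean in hTDP-43 A315T, 22.2% in hTDP-43 WT mice and 24.9% in Chat bacTRAP mice.

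Sox10 was the most depleted member in hTDP-43 A315T mice, with 206 to 780 normalized counts (median 378) in MN-TRAP against 5315 to 7428 (median 6073) in spinal cord. MN-TRAP held 6.63% of the spinal cord mean of Sox10 in hTDP-43 A315T mice, 16.01% in hTDP-43 WT mice and 16.1% in Chat bacTRAP mice. Its libraries did not overlap between fractions in any genotype. Nkx2-2, with 33.6 to 53.8 normalized counts (median 42.3) in hTDP-43 A315T MN-TRAP against 325 to 519 (median 478) in spinal cord, varied little from library to library in MN-TRAP of this genotype. Myrf had 424 to 617 (median 492.7) against 3894 to 6117 (median 5680), a log2 change of -3.27 ± 0.19 with the smallest adjusted p among the members (5.3e-21 by edgeR).

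The receptor and precursor genes were depleted less evenly. Gpr17 had 48.1 to 151 normalized counts (median 94.8) in hTDP-43 A315T MN-TRAP against 741 to 1759 (median 1175) in spinal cord, 7.51% of the spinal cord mean, where hTDP-43 WT MN-TRAP held 28.6% and Chat bacTRAP MN-TRAP 21.2%. Vcan had 22.1 to 81.9 (median 35.2) in hTDP-43 A315T MN-TRAP against 306 to 511 (median 430) in spinal cord. Neither gene overlapped between fractions in any genotype. Pdgfra was at 13.2% of its spinal cord mean in hTDP-43 A315T MN-TRAP, at 43.7% in hTDP-43 WT mice and at 35.8% in Chat bacTRAP MN-TRAP, and in hTDP-43 WT mice, where its change of -0.91 ± 0.33 (SE, adjusted p = 0.018 by edgeR) was under 2-fold (29.7% of all genes passed lower at any fold), 1 MN-TRAP library, replicate 2 at 9 weeks, lay within the range of the spinal cord libraries. Without that library the change was -2.16 (adjusted p = 1.1e-05) and was called.

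Cspg4 departed from the rest. It had 22.3 to 494 normalized counts (median 137) in hTDP-43 A315T MN-TRAP, against 190 to 346 (median 236) in spinal cord, and its log2 change of -0.82 ± 0.40 did not pass (adjusted p = 0.067 by edgeR, 95% interval -1.62 to -0.02). In hTDP-43 WT mice it had 0 to 310 (median 41.2) in MN-TRAP against 92.7 to 325 (median 219) in spinal cord (-1.12 ± 0.43, adjusted p = 0.024). In Chat bacTRAP mice it had 17.5 to 289 (median 84.0) in MN-TRAP against 146 to 538 (median 236) in spinal cord (-1.07 ± 0.41, adjusted p = 0.022). The fractions overlapped in every genotype, with 2 MN-TRAP libraries at or above the lowest spinal cord library in each. Of the 19 fits that left out 1 library, the Cspg4 call was lost in 3 in hTDP-43 WT mice (without MN-TRAP replicate 1 or 2 at 9 weeks or spinal cord replicate 3 at 14 weeks) and in 5 in Chat bacTRAP mice, and without hTDP-43 WT MN-TRAP replicate 3 at 9 weeks its change in that line was -3.67, and without Chat bacTRAP MN-TRAP replicate 1 at 14 weeks it was -1.94 in Chat bacTRAP mice.

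**Figure D1:**
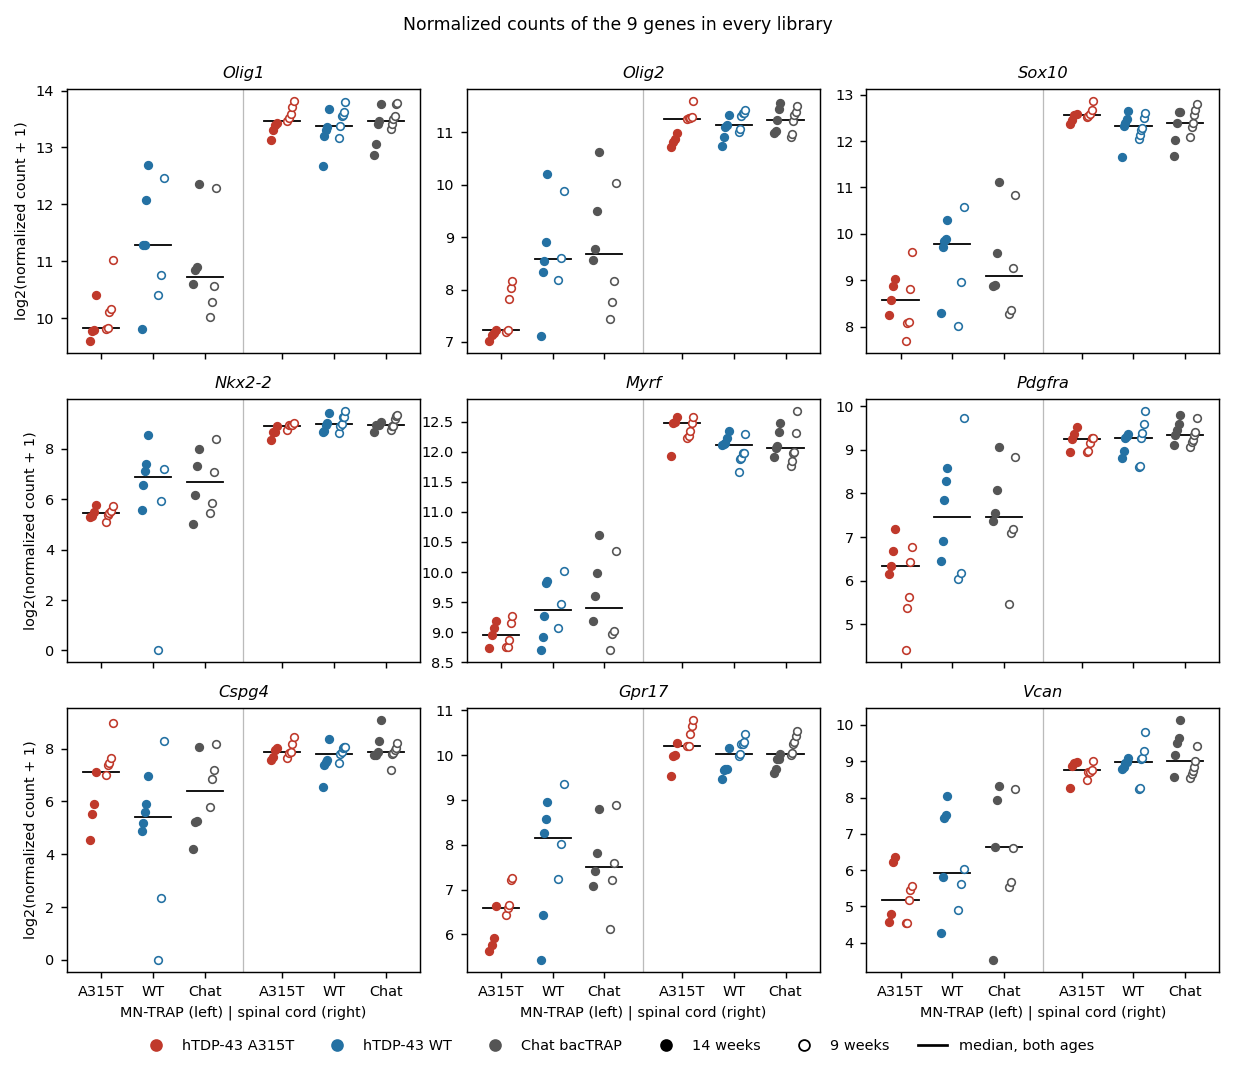
Normalized counts of the 9 genes as log2(count + 1) on the y axis, with each of the 56 libraries a point, grouped on the x axis by genotype (hTDP-43 A315T in red, hTDP-43 WT in blue, Chat bacTRAP in grey), MN-TRAP left and spinal cord right. Filled points are 14 weeks, open points 9 weeks, and bars are medians over both ages. The fractions separate for Olig2, Sox10, Nkx2-2, Myrf, Gpr17 and Vcan in every genotype and overlap for Cspg4.

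The depth of depletion was compared between genotypes by testing the difference of the MN-TRAP over spinal cord changes. Relative to Chat bacTRAP, the change was lower in hTDP-43 A315T mice by -1.59 ± 0.38 on the log2 scale for Olig2 (SE, adjusted p = 0.029) and by -1.58 ± 0.40 for Gpr17 (adjusted p = 0.045), 2 of 9 members, where 0.419% of all genes were called lower. Relative to hTDP-43 WT, 4 of 9 members were called lower (0.605% of all genes): Gpr17 (-2.04 ± 0.41, adjusted p = 0.013), Pdgfra (-1.91 ± 0.45, adjusted p = 0.031), Olig1 (-1.57 ± 0.38, adjusted p = 0.036) and Olig2 (-1.51 ± 0.38, adjusted p = 0.046, edgeR throughout). Both comparisons use the same hTDP-43 A315T libraries. Between hTDP-43 WT and Chat bacTRAP no member was called (0.403% of all genes in either direction, 1963 of 18838 with an unadjusted p below 0.05), with log2 differences between -0.76 (Vcan) and 0.48 (Pdgfra), and DESeq2 called none. For Cspg4 the difference was 0.25 relative to Chat bacTRAP (95% interval -0.88 to 1.38) and 0.30 relative to hTDP-43 WT (-0.85 to 1.46). Over 37 fits that each left out 1 library, the calls relative to Chat bacTRAP were lost in 28 for Gpr17 and in 2 for Olig2 (without Chat bacTRAP MN-TRAP replicate 1 at 14 weeks or replicate 2 at 9 weeks). Relative to hTDP-43 WT they were lost in 29 for Olig2, 19 for Olig1, 7 for Pdgfra and 1 for Gpr17, all 4 of them without hTDP-43 WT MN-TRAP replicate 2 at 9 weeks, where Pdgfra came to -0.67 (adjusted p = 0.90) and Gpr17 to -1.44 (adjusted p = 0.44). The sign held in every such fit, and limma-voom called no member in either comparison. With a block for libraries of the same genotype, age and replicate number, edgeR also called no member in either.

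**Figure D2:**
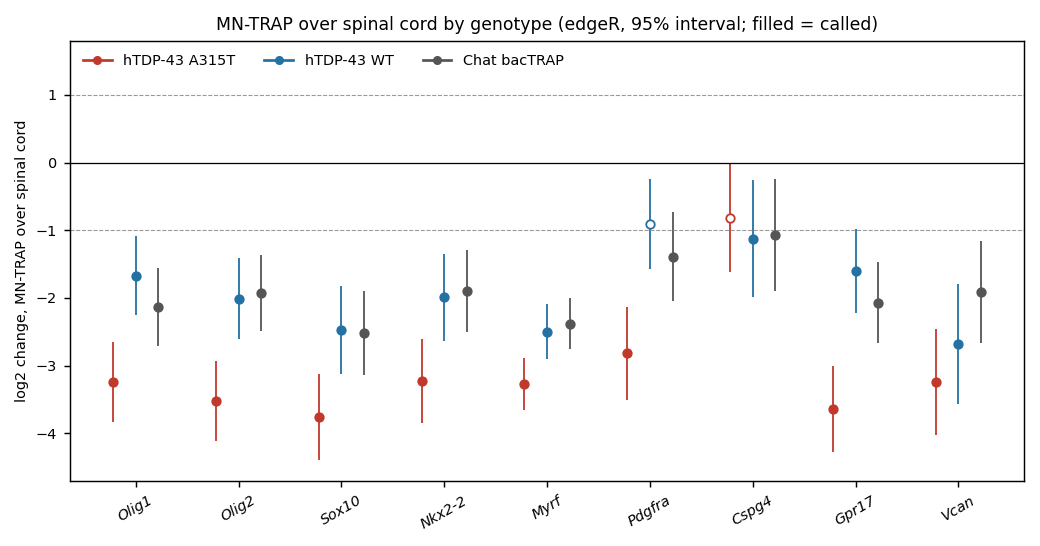
Log2 change of MN-TRAP over spinal cord (y axis) for each of the 9 genes (x axis) in hTDP-43 A315T (red), hTDP-43 WT (blue) and Chat bacTRAP (grey) mice, from edgeR, with 95% intervals. Filled points are called (adjusted p below 0.05 and at least 2-fold, dashed lines), and the hTDP-43 A315T points lie lowest for 8 of 9 genes, from -2.82 to -3.76, with Cspg4 at -0.82 the exception.

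In MN-TRAP at 14 weeks, in the early symptomatic phase, hTDP-43 A315T mice had less of several lineage transcripts than either control line. Relative to Chat bacTRAP, Olig2, Gpr17, Pdgfra and Olig1 were called lower, 4 of 9 members, where 5.17% of all genes were called lower. Relative to hTDP-43 WT, Olig2, Olig1, Gpr17 and Nkx2-2 were called lower, also 4 of 9, against 4.67% of all genes. The comparisons share the hTDP-43 A315T libraries. No member was called higher in either.

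Olig2 had 142, 129, 140 and 148 normalized counts in the 4 hTDP-43 A315T libraries, against 374, 1173, 323, 481 and 138 in the 5 hTDP-43 WT libraries and 1576, 437, 721 and 378 in the 4 Chat bacTRAP libraries. The hTDP-43 A315T libraries were close together and below every Chat bacTRAP library, and a single hTDP-43 WT library, replicate 5, was among them. The log2 change was -2.44 ± 0.43 relative to Chat bacTRAP (SE, adjusted p = 0.00034 by edgeR) and -1.81 ± 0.41 relative to hTDP-43 WT (adjusted p = 0.0046). Of the members, Olig2 alone was called relative to Chat bacTRAP in each of the 8 fits that left out 1 library.

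Olig1 had 1364, 775, 875 and 888 normalized counts in hTDP-43 A315T, against 2485, 4335, 6616, 2484 and 897 in hTDP-43 WT mice and 5234, 1919, 1549 and 1839 in Chat bacTRAP MN-TRAP. All hTDP-43 A315T libraries lay below the lowest Chat bacTRAP library, and hTDP-43 WT replicate 5 again fell within their range. The log2 change was -1.35 ± 0.41 relative to Chat bacTRAP (SE, adjusted p = 0.024) and -1.76 ± 0.40 relative to hTDP-43 WT (adjusted p = 0.0057, edgeR).

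Gpr17, the marker of cells committed to differentiate, had 59.8, 53.2, 48.1 and 98.3 normalized counts in hTDP-43 A315T, against 85.0, 383, 497, 308 and 42.1 in hTDP-43 WT mice and 444, 170.1, 224 and 134 in Chat bacTRAP MN-TRAP. The hTDP-43 A315T and Chat bacTRAP libraries did not overlap, and hTDP-43 WT replicate 5 was below all of them. Its log2 change was -1.88 ± 0.46 relative to Chat bacTRAP (SE, adjusted p = 0.0057) and -1.96 ± 0.44 relative to hTDP-43 WT (adjusted p = 0.0046, edgeR).

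Pdgfra, which receives the mitogen signal of the precursors, had 80.4, 145, 100.8 and 70.0 normalized counts in hTDP-43 A315T, against 119, 383, 312, 230.0 and 86.1 in hTDP-43 WT mice and 533, 267, 165 and 186 in Chat bacTRAP MN-TRAP. It was lower without overlap relative to Chat bacTRAP (-1.49 ± 0.50 SE on the log2 scale, adjusted p = 0.037), while relative to hTDP-43 WT, where replicates 1 and 5 lay within the hTDP-43 A315T range, the value was -1.17 ± 0.47 (adjusted p = 0.12, edgeR). Nkx2-2 had 39.1, 38.4, 43.5 and 53.8 normalized counts in hTDP-43 A315T, against 93.8, 372, 168, 137 and 47.1 in hTDP-43 WT mice and 157, 255, 31.5 and 69.8 in Chat bacTRAP MN-TRAP. hTDP-43 WT replicate 5 and Chat bacTRAP replicate 3 were as low as the hTDP-43 A315T libraries. Its change was called relative to hTDP-43 WT (-1.88 ± 0.44, adjusted p = 0.0060) and missed the threshold relative to Chat bacTRAP (-1.31 ± 0.47, adjusted p = 0.052, edgeR).

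Myrf, the activator of myelin genes, had 424, 492.7, 536 and 581 normalized counts in hTDP-43 A315T, against 615, 925, 417, 905 and 481 in hTDP-43 WT mice and 1577, 1008, 776 and 582 in Chat bacTRAP MN-TRAP. It passed at less than 2-fold relative to Chat bacTRAP (-0.87 ± 0.27 SE on the log2 scale, adjusted p = 0.022, where 5.98% of all genes passed lower at any fold), with the highest hTDP-43 A315T library just under the lowest Chat bacTRAP library, and did not pass relative to hTDP-43 WT (-0.41, adjusted p = 0.33). Sox10 had log2 changes of -1.20 relative to Chat bacTRAP (adjusted p = 0.055) and -1.02 relative to hTDP-43 WT (adjusted p = 0.12), and Vcan -1.53 (adjusted p = 0.061) and -1.35 (adjusted p = 0.11, edgeR). In all, 5 of 9 members were lower in hTDP-43 A315T than in Chat bacTRAP MN-TRAP with no overlap between libraries, against 2.05% of all genes, and none relative to hTDP-43 WT, against 1.08%.

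Cspg4 was again unlike the others. It had 45.0, 22.3, 59.6 and 137 normalized counts in hTDP-43 A315T, against 35.5, 124, 46.9, 28.2 and 58.1 in hTDP-43 WT mice and 264, 36.4, 37.5 and 17.5 in Chat bacTRAP MN-TRAP. The groups overlapped throughout, and the log2 change was -0.54 relative to Chat bacTRAP (95% interval -1.78 to 0.71) and 0.16 relative to hTDP-43 WT (-1.01 to 1.34).

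Single libraries weighed on these counts. Without Chat bacTRAP replicate 1, only Olig2 was called relative to Chat bacTRAP (-1.79, adjusted p = 0.0064), with Gpr17 at -1.35 (adjusted p = 0.078), Pdgfra at -0.88 (adjusted p = 0.31) and Olig1 at -0.72 (adjusted p = 0.28). The calls of Olig1 and of Pdgfra relative to Chat bacTRAP were also lost without each of 3 hTDP-43 A315T libraries (replicates 2, 3 and 4 for Olig1, replicates 1, 3 and 4 for Pdgfra), while the 4 calls relative to hTDP-43 WT were made in all 9 such fits. Without the 4 control libraries that stood apart, 8 members were called relative to Chat bacTRAP and 7 relative to hTDP-43 WT, Cspg4 not among them (adjusted p = 0.24 and 0.84). The share of all genes called in that fit is not given here, so these counts cannot be set against it. Fitted without the spinal cord libraries, edgeR called 0 of 16520 genes in either comparison, with 2042 relative to Chat bacTRAP and 1723 relative to hTDP-43 WT at an unadjusted p below 0.05, and limma-voom on all libraries called 0 and 2 members (Olig1 and Olig2).

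**Figure D3:**
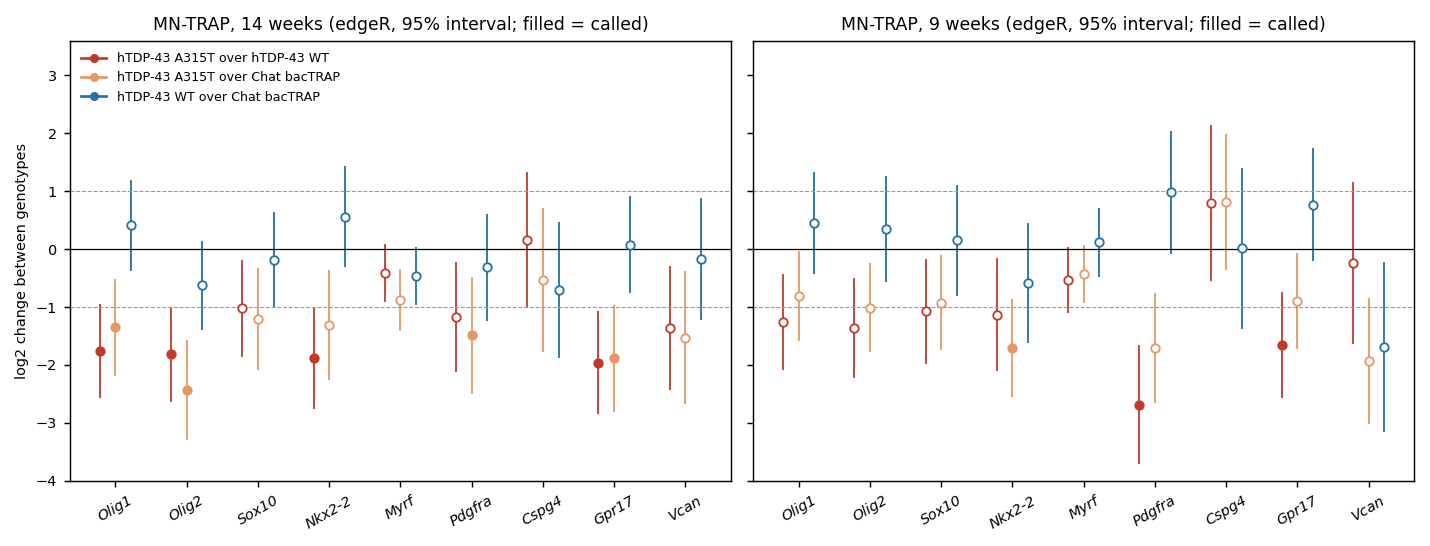
Log2 change between genotypes in MN-TRAP (y axis) of the 9 genes (x axis) at 14 weeks (left) and 9 weeks (right), from edgeR with 95% intervals, for hTDP-43 A315T over hTDP-43 WT (red), hTDP-43 A315T over Chat bacTRAP (orange) and hTDP-43 WT over Chat bacTRAP (blue). Filled points are called, 4 in each hTDP-43 A315T comparison at 14 weeks, 2 and 1 at 9 weeks, and none between the control lines.

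At 9 weeks, before motor symptoms, fewer members were called. Relative to Chat bacTRAP, Nkx2-2 alone was called lower in hTDP-43 A315T MN-TRAP (1 of 9, against 0.536% of all genes), and relative to hTDP-43 WT, Pdgfra and Gpr17 were called lower (2 of 9, against 2.04% of all genes). Nkx2-2 had 42.3, 45.7, 40.3, 33.6 and 52.1 normalized counts in hTDP-43 A315T, against 56.6, 338, 132 and 43.2 in Chat bacTRAP MN-TRAP. The highest hTDP-43 A315T library stood above the lowest Chat bacTRAP library, so the groups overlapped. The log2 change was -1.71 ± 0.42 (SE, adjusted p = 0.043 by edgeR), and the call was lost without any 1 of the 5 hTDP-43 A315T libraries and without Chat bacTRAP replicate 2.

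Pdgfra had 108, 48.7, 20.2, 85.6 and 40.5 normalized counts in hTDP-43 A315T, against 64.5, 847 and 71.2 in hTDP-43 WT mice and 136, 457, 145 and 43.2 in Chat bacTRAP MN-TRAP at 9 weeks. A single hTDP-43 WT library, replicate 2, was far above the rest, and the other 2 lay within the hTDP-43 A315T range. The change was -2.69 ± 0.51 relative to hTDP-43 WT (SE, adjusted p = 0.0024) and -1.71 ± 0.47 relative to Chat bacTRAP (adjusted p = 0.077, edgeR). Without that hTDP-43 WT replicate 2 the value was -0.21 (adjusted p = 1.0), and no member was called.

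Gpr17 had 151, 148, 94.8, 99.0 and 84.9 normalized counts in hTDP-43 A315T, against 258, 654 and 150 in hTDP-43 WT mice and 147, 472, 193 and 68.0 in Chat bacTRAP MN-TRAP at 9 weeks. The lowest hTDP-43 WT library was level with the highest in hTDP-43 A315T, and the log2 change was -1.65 ± 0.45 (SE, adjusted p = 0.036 by edgeR), and -0.44 (adjusted p = 0.98) without hTDP-43 WT replicate 2. The Gpr17 call was also lost without hTDP-43 A315T replicate 3, 4 or 5. Olig2 had 225, 261, 287, 146 and 149 in hTDP-43 A315T, against 387, 936 and 288 in hTDP-43 WT mice and 285, 1048, 217 and 171 in Chat bacTRAP MN-TRAP. It was the 1 member lower than in hTDP-43 WT with no overlap, against 1.77% of all genes, with the nearest libraries at 287 and 288, and its change did not pass (-1.35, adjusted p = 0.080 relative to hTDP-43 WT, and -1.01, adjusted p = 0.25 relative to Chat bacTRAP).

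The libraries on which these values rest were replicate 2 in each control line. Without Chat bacTRAP replicate 2 the log2 changes relative to Chat bacTRAP at 9 weeks were 0.04 for Olig1, 0.01 for Olig2, 0.02 for Gpr17 and -0.51 for Nkx2-2, and none passed. Without the 4 control libraries that stood apart, 5 members were called relative to Chat bacTRAP and 7 relative to hTDP-43 WT, with the share of all genes again not given. Those 4 include hTDP-43 WT replicate 3 and Chat bacTRAP replicate 4, the lowest of their groups at 9 weeks for Olig2 (288 and 171). No member was called for a difference of its genotype change between ages: the difference, 14 weeks minus 9 weeks, was -1.43 for Olig2 (adjusted p = 0.20) and -0.996 for Gpr17 (adjusted p = 0.48) relative to Chat bacTRAP, and 1.51 for Pdgfra (adjusted p = 0.30) relative to hTDP-43 WT, where 1.71% and 0.143% of all genes were called in either direction by edgeR.

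Cspg4 did not share this direction at 9 weeks, and its changes did not pass. It had 197, 494, 166, 176 and 127 normalized counts in hTDP-43 A315T, against 0, 4.14 and 310 in hTDP-43 WT mice and 54.5, 113, 289 and 145 in Chat bacTRAP MN-TRAP. Of the 5 hTDP-43 A315T libraries at 9 weeks, 4 were above every hTDP-43 A315T library at 14 weeks, whose highest value was 137, and 2 hTDP-43 WT libraries were at or near 0. The log2 change was 0.80 relative to hTDP-43 WT (adjusted p = 0.58) and 0.81 relative to Chat bacTRAP (adjusted p = 0.60, edgeR). The hTDP-43 WT group holds its shallowest library at 0 and replicate 3 at 310, and without replicate 3 the change of hTDP-43 WT over Chat bacTRAP, which was 0.01, became -5.07 (adjusted p = 0.0035).

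Between the control lines, hTDP-43 WT and Chat bacTRAP, no member was called in MN-TRAP at 14 weeks, where 13.2% of all genes were called in either direction (6786 of 18838 with an unadjusted p below 0.05), or at 9 weeks (0.223%, 2515). The log2 changes of hTDP-43 WT over Chat bacTRAP lay between -0.70 (Cspg4) and 0.56 (Nkx2-2) at 14 weeks and between -1.69 (Vcan) and 0.98 (Pdgfra) at 9 weeks, and DESeq2 called no member at either age.

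In spinal cord no member was called between genotypes. Olig2 had 2031, 1860, 1694 and 1810 normalized counts in hTDP-43 A315T, against 2193, 2246, 2587, 1914 and 1703 in hTDP-43 WT mice and 2399, 3023, 2776, 2019 and 2081 in Chat bacTRAP spinal cord at 14 weeks. The highest hTDP-43 A315T library was above the lowest library of each control line, so the ranges met. Gpr17 had 1005, 1028, 741 and 1239 in hTDP-43 A315T, against 705, 824, 1138, 824 and 813 in hTDP-43 WT mice and 960, 780, 1039, 957 and 825 in Chat bacTRAP spinal cord. The groups overlapped for this gene too. At 14 weeks 0.0212% and 0.0265% of all genes were called in either direction in hTDP-43 A315T relative to Chat bacTRAP and to hTDP-43 WT, and 0.00531% between the control lines. At 9 weeks the shares were 0.0372%, 0.0212% and 0%. Over these 6 comparisons 37 to 872 genes had an unadjusted p below 0.05, and the members' log2 changes lay between -0.65 and 0.42. DESeq2 and limma-voom also called no member. Olig2 passed at less than 2-fold in hTDP-43 A315T relative to Chat bacTRAP at 14 weeks in limma-voom (-0.44, adjusted p = 0.011) and in edgeR on spinal cord alone with the base-composition covariate described below (-0.47, adjusted p = 0.020).

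Between 14 and 9 weeks no member was called in either fraction. In hTDP-43 A315T spinal cord, Olig2 had 2031, 1860, 1694 and 1810 normalized counts at 14 weeks, against 3086, 2424, 2488, 2470.9 and 2474 at 9 weeks, and Olig1 had 11040, 8947, 10774 and 10185 at 14 weeks, against 14383, 13338, 12312, 11275 and 11733 at 9 weeks. These 2 members were lower at 14 weeks with no overlap, against 1.00% of all genes, and their log2 changes were -0.48 for Olig2 and -0.29 for Olig1, with an adjusted p of 1.0 for each (edgeR, 0 genes called, 44 with an unadjusted p below 0.05, and no member called by DESeq2). In MN-TRAP the members' largest changes with age were -1.88 for Cspg4 in hTDP-43 A315T mice (adjusted p = 0.36) and 1.78 for Vcan in hTDP-43 WT mice (adjusted p = 0.087), and 0.0106%, 7.03% and 5.15% of all genes were called in either direction in hTDP-43 A315T, hTDP-43 WT and Chat bacTRAP MN-TRAP. DESeq2 called 1 member, in hTDP-43 WT MN-TRAP.

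The members' levels in MN-TRAP moved with those of myelin genes and of markers of other glia. Summed over the 16 mature myelin genes, MN-TRAP held 2368 to 3067 CPM in hTDP-43 A315T libraries at 14 weeks, against 2818 to 26169 CPM in hTDP-43 WT mice and 3598 to 22548 CPM in Chat bacTRAP libraries. Summed over the 9 members, it held 80.8 to 107 CPM in hTDP-43 A315T, against 86.7 to 352 CPM in hTDP-43 WT mice and 137 to 458 CPM in Chat bacTRAP libraries at 14 weeks. The same Chat bacTRAP libraries, replicate 1 at 14 weeks and replicate 2 at 9 weeks, were highest in both sums, and hTDP-43 WT replicate 5 was lowest of its group in both. Motor neuron markers summed to 1905 to 7992 CPM over all MN-TRAP libraries. The part of either list's level in the members' genotype differences was not tested.

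Over the 25 MN-TRAP libraries, the log2 CPM of Olig1 correlated with the mean log2 CPM of the 16 myelin genes at r = 0.91 (Spearman's rho 0.73, and r = 0.86 without the 2 libraries farthest from the median), Olig2 at 0.82, Sox10 at 0.83, Gpr17 at 0.82 and Pdgfra at 0.82. Myrf (0.69), Vcan (0.61) and Nkx2-2 (0.58) followed less closely, and Cspg4 did not follow (r = -0.14, rho -0.39). The 9 astrocyte genes gave values as high, with r = 0.88 for Pdgfra, 0.86 for Olig1 and Sox10, 0.81 for Olig2, 0.75 for Myrf, 0.74 for Gpr17, 0.71 for Nkx2-2 and 0.65 for Vcan, and the 6 Schwann cell genes reached 0.84 for Pdgfra, 0.74 for Myrf and 0.72 for Vcan. With the 15 further precursor genes the members' r lay between 0.19 (Gpr17, Cspg4) and 0.53 (Vcan, Myrf). Within the 16 control libraries, r with the myelin genes was 0.54 to 0.94 for the members other than Cspg4 (0.08). Within the 9 hTDP-43 A315T libraries, whose myelin levels span a narrow range, it was 0.57 for Pdgfra, 0.27 for Sox10, 0.26 for Myrf and 0.04 for Vcan, and below 0 for the other 5 (-0.34 for Olig1, -0.07 for Olig2). The points share their library, its depth and its scaling. Among the members, Olig1 and Sox10 (r = 0.88) and Olig2 and Myrf (r = 0.87) were closest, and Cspg4 had a median r of -0.07 with the other 8. Cspg4 had r = -0.02 with the mean log2 CPM of 7 pericyte genes in MN-TRAP (rho -0.25), and over the 31 spinal cord libraries it had 0.58 with pericyte (rho 0.53), 0.66 with microglial (rho 0.60) and 0.53 with astrocyte genes (rho 0.55).

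**Figure D4:**
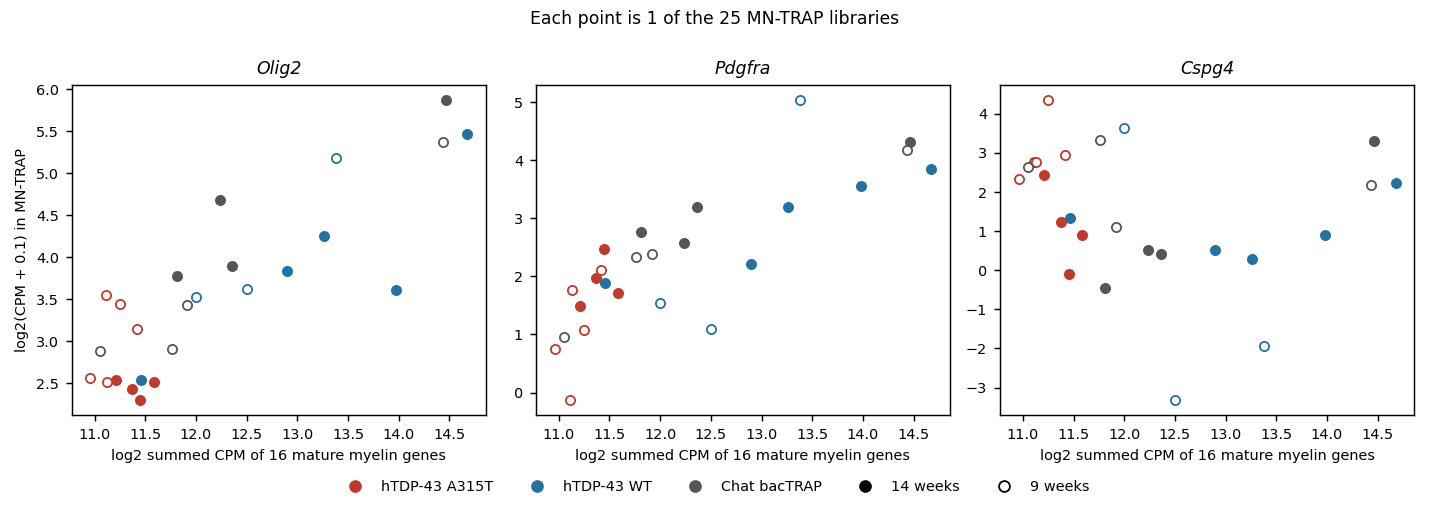
Level of Olig2, Pdgfra and Cspg4 as log2(CPM + 0.1) (y axes) against the log2 summed CPM of 16 mature myelin genes (x axes) in the 25 MN-TRAP libraries, coloured by genotype and filled at 14 weeks, open at 9 weeks. Olig2 and Pdgfra climb with the myelin sum (r = 0.82 each with the mean log2 level of the list), the hTDP-43 A315T libraries gather at the low end, and Cspg4 shows no such climb (r = -0.14).

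The genes whose level over the MN-TRAP libraries was most like each member's were mostly myelin or glial genes for Olig1, Olig2, Sox10 and Gpr17. Cnp (r = 0.95) and Phldb1 (0.94) were among the 3 nearest to Olig1 of 13818 genes averaging 1 CPM or more. Enpp1 (0.92), Fa2h (0.91) and Bcas1 (0.91) were nearest to Olig2, and Mag (0.87), Slc6a11 and Cnp to Gpr17. Nnat and Atp1b2 were among the 3 nearest to Sox10. Myrf had Ppp2r5a (0.89), Enpp1 and Olig2 itself. Pdgfra had Serpine2 (0.91), Slc44a1 and mt-Co1, Vcan had Rfx3 (0.90), Sash1 and Ebf3, Nkx2-2 had Ccnyl1 (0.94), Cav1 and Cyp2j12, and Cspg4 had Ticam1 (0.89), BX649560.1 and Dhx16. These are the highest of many correlations over 25 libraries, and by Spearman's rho 10 of the 27 genes found in this way remained among the nearest 3.

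Other genes of the lineage were counted beside the members. Of 15 further precursor genes tested, 11 were called lower in MN-TRAP than in spinal cord in hTDP-43 A315T mice (median log2 change -1.78, where the median of all genes was -0.10), 8 in hTDP-43 WT mice (-1.46) and 11 in Chat bacTRAP mice (-1.39). Ptprz1, a receptor phosphatase of precursors and astrocytes, changed by -3.00 in hTDP-43 A315T mice (adjusted p = 2.3e-09), and C1ql1 by -1.27 (adjusted p = 0.00040). Bcan, which neurons and astrocytes also make, changed by -0.99 (adjusted p = 5.0e-06), under 2-fold, and Tnr had -0.34 (adjusted p = 0.066, edgeR). Of 10 committed and premyelinating genes, 7, 6 and 7 were called lower in hTDP-43 A315T, hTDP-43 WT and Chat bacTRAP mice, with Bcas1 at -2.92 and Tns3 at -2.62 in hTDP-43 A315T, while the kinase gene Fyn, which neurons express too, had -0.01 (adjusted p = 0.93). Of 22 other regulators of the lineage, 11, 9 and 8 were called lower and none higher. Nfia (0.76), Hdac2 (0.66) and Id2 (0.34) were higher in hTDP-43 A315T MN-TRAP at less than 2-fold, and Smarca4 had 0.11 (adjusted p = 0.65).

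In MN-TRAP at 14 weeks, 5.17% of all genes were called lower and 5.24% higher in hTDP-43 A315T relative to Chat bacTRAP, and 4.67% lower relative to hTDP-43 WT. Among the 15 further precursor genes, 3 were called lower in hTDP-43 A315T relative to Chat bacTRAP (median log2 change -0.44, all genes 0.09) and 1, Ptprz1 (-1.64, adjusted p = 0.044), relative to hTDP-43 WT (median -0.54, all genes -0.09). Of 10 committed genes, 2 and 3 were called lower, Bcas1 in each comparison (-1.81, adjusted p = 0.0070 relative to Chat bacTRAP, and -1.50, adjusted p = 0.025 relative to hTDP-43 WT). Of 22 other regulators, 2 were called lower and 2 higher relative to Chat bacTRAP, and 3 lower relative to hTDP-43 WT. Whether these counts differ from the shares over all genes was not tested. Of the 16 mature myelin genes, 8 and 16 were called lower (median -1.31 and -1.80). The members' median was -1.35 in each comparison. Markers of cells outside the lineage were also lower in hTDP-43 A315T MN-TRAP. Of 9 astrocyte genes, 5 were called lower in each comparison (median -1.50 relative to Chat bacTRAP and -1.73 relative to hTDP-43 WT). The medians relative to Chat bacTRAP were -1.30 for 8 microglial, -1.41 for 6 endothelial, -1.63 for 7 pericyte, -1.29 for 7 fibroblast and -1.53 for 6 Schwann cell genes, with 1, 1, 1, 1 and 3 called lower. The 8 motor neuron markers had a median of 0.54 relative to Chat bacTRAP (1 called higher) and 0.11 relative to hTDP-43 WT (none called). Differences between lists, and the part of these other cell types in the members' values, were not tested.

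The pathways of the precursor receptor and of versican were looked at for their ligands and partners. Pdgfa, the ligand of Pdgfra that neurons and astrocytes make, had a log2 change of -0.35 in MN-TRAP over spinal cord in hTDP-43 A315T mice (adjusted p = 0.12), and Pdgfb was higher by 0.90 (adjusted p = 5.6e-05), under 2-fold. Pdgfrb, the receptor of pericytes, was called lower (-2.69, adjusted p = 3.9e-06), the only call among the 4 genes. In MN-TRAP none of the 4 was called between hTDP-43 A315T and either control line at 14 weeks. Of 12 versican partners and perineuronal net genes, 4 were called lower in MN-TRAP than in spinal cord and 1 higher in hTDP-43 A315T mice, where 24.1% and 13.3% of all genes were. Hapln2, the link protein of nodes of Ranvier, was called lower (-3.60, adjusted p = 1.6e-14), and Hapln4, a link protein of neuronal nets, was higher by 0.44 (adjusted p = 0.00075, edgeR), under 2-fold.

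In spinal cord, where genotype and age gave no calls, the members varied together in another way. Sox10 and Olig1 were high in the same libraries (r = 0.86, n = 31), as were Pdgfra and Vcan (r = 0.81), but the 2 pairs opposed each other, with r = -0.72 between Sox10 and Vcan and -0.64 between Olig1 and Vcan. In these genes the transcripts of Sox10 and Olig1 were richer in GC than those of Pdgfra and Vcan, as given above. The part of base composition in this order was not tested. A GC tilt was computed for each library as the mean log2 deviation of genes in the upper quartile of transcript GC minus that of genes in the lower quartile, the members left out. It ran between -1.005 (Chat bacTRAP replicate 5 at 14 weeks) and 0.549 (hTDP-43 WT replicate 6 at 9 weeks) in spinal cord. Sox10 followed it with r = 0.94 (rho 0.91, and r = 0.88 without the 2 libraries farthest from the median) and Olig1 with 0.90 (rho 0.84, 0.83 without those 2), whereas Pdgfra went against it at -0.57 (rho -0.55, -0.57 without them) and Vcan at -0.76 (rho -0.76, -0.75 without them).

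The remaining members followed the tilt less, with r of 0.53 for Olig2, 0.47 for Cspg4, 0.45 for Myrf, 0.40 for Gpr17 and -0.03 for Nkx2-2. Their longest transcripts were 58.5%, 59.2%, 57.6%, 53.4% and 55.7% GC in the same order. Nkx2-2 thus had a lower r than Gpr17 at a higher GC, and r did not follow GC over all members. All these values share the libraries and their scaling. In spinal cord, Sox10 had its lowest normalized counts, 3228 and 3299, in hTDP-43 WT replicate 5 and Chat bacTRAP replicate 5 at 14 weeks, the libraries with the lowest tilts, and Vcan its highest, 1120, in that Chat bacTRAP library. The tilt of MN-TRAP libraries ran between -0.66 and 1.31, and the members' r with it there lay between -0.50 (Vcan) and 0.21 (Cspg4).

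**Figure D5:**
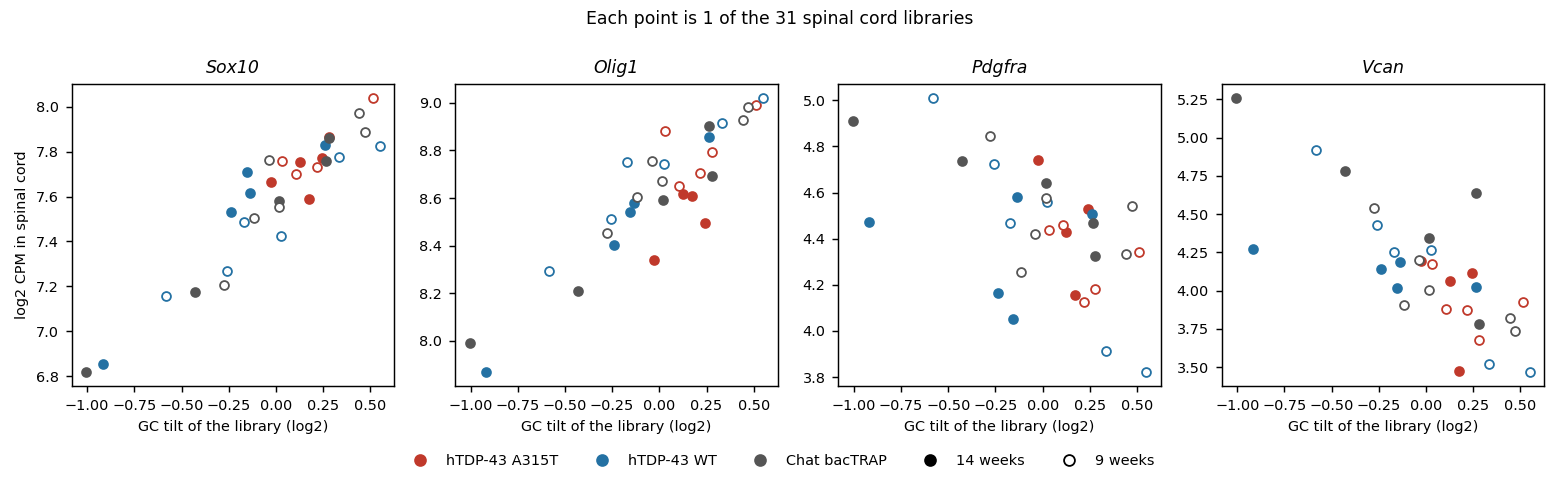
Log2 CPM of Sox10, Olig1, Pdgfra and Vcan (y axes) in the 31 spinal cord libraries against the GC tilt of the library (x axes, mean log2 deviation of GC-rich minus GC-poor genes), coloured by genotype and filled at 14 weeks, open at 9 weeks. Sox10 and Olig1 climb with the tilt (r = 0.94 and 0.90) and Pdgfra and Vcan descend (r = -0.57 and -0.76), with libraries of all 3 genotypes along each line.

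Nearest to Sox10 in spinal cord were Abhd8 (r = 0.96), Map3k11 and Nfkbib, and nearest to Olig1 Dcakd (0.96), C1qtnf4 and Scand1, none of them a myelin gene. Vcan had Arsk (0.93), Man1a and Slc35a3, Pdgfra Abca9 (0.89), Adam17 and Acp2, Myrf Mink1 (0.94), Rubcn and Zfp319, and Cspg4 Lrp1 (0.87), Wtip and Selplg. Nkx2-2 had Phlda1 (0.88), Gng11 and Mrpl42, while Olig2 (Inha, 0.77) and Gpr17 (Shisal1, 0.76) had no gene as close among the 14359 searched over the 31 libraries. By Spearman's rho, 10 of the 27 genes remained among the nearest 3 here too.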

How the data were processed

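The study aligned polyA RNA sequencing reads of 56 retained libraries to GRCm38 (mm10) with STAR and counted them per gene with featureCounts. The deposited raw counts are whole-number read counts per gene, as the authors made them. The authors also deposited a signal table, those counts divided by 1 DESeq2 size factor per library, used here as normalized counts.

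All 56 libraries entered 1 edgeR model (R 4.3.3, edgeR 4.0.16) of the 12 groups of genotype, age and fraction: low-count filter by group, TMM scaling, robust quasi-likelihood fit, and Benjamini-Hochberg adjustment over the 18838 genes tested, in each of 26 comparisons. A gene was called at an adjusted p below 0.05 and at least 2-fold, and passed at an adjusted p below 0.05 alone. CPM values on a log2 scale used a prior count of 2. The model was also run on simulated counts, with the same spread for a gene in MN-TRAP and in spinal cord. That run cannot judge the genotype tests in MN-TRAP, where the members varied more. Alternatives were DESeq2 1.42.0, limma-voom (limma 3.58.1), median-ratio scaling, no filter, each fraction alone, a replicate block, no libraries under 5000000 counts, no 4 control libraries that stood apart, and leaving out each library in turn. The GC tilt covariate was chosen after seeing the data.

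All 9 members are named. By rule, the 4 genes of another list with the highest mean CPM that passed the filter, and the 3 genes with the highest Pearson r to a member in each fraction, were named, for the lists that bear on the lineage. Some genes that this rule picks are not reported here. The members and lists were chosen with earlier results of these data known. Raw totals lay between 472447 and 255802240 counts, so low counts in the shallowest library carry the largest counting error. Libraries that the study excluded were not analysed here.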

Additional observations from a re-analysis of the deposited data

Results flagged for a closer look

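In 10 of the 99 groups of 4 to 10 libraries examined, the highest library of a member lay far above the others by Dixon's test at its 95% level. Chance flags about 1 in 20 independent groups of normally spread values. Here the members share their libraries, so 10 of 99 does not measure an excess over chance. Values are normalized counts. In Chat bacTRAP MN-TRAP, replicate 1 at 14 weeks had 5234 for Olig1 (next highest 1919), 2224 for Sox10 (764.2) and 263.6 for Cspg4 (37.53), and replicate 2 at 9 weeks had 4980 for Olig1 (1517), 1048 for Olig2 (285.2) and 1305 for Myrf (517.8). In hTDP-43 A315T MN-TRAP at 9 weeks, replicate 3 had 2071 for Olig1 (1146) and replicate 2 had 494.1 for Cspg4 (196.8). In spinal cord, hTDP-43 A315T replicate 1 at 9 weeks had 3086 for Olig2 (2488) and hTDP-43 WT replicate 3 at 14 weeks had 1138 for Gpr17 (823.9).

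The change of MN-TRAP over spinal cord differed between genotypes for 4 members by edgeR's test of the difference, on the log2 scale. In hTDP-43 A315T minus Chat bacTRAP it was -1.59 for Olig2 (adjusted p = 0.029) and -1.58 for Gpr17 (adjusted p = 0.045). In hTDP-43 A315T minus hTDP-43 WT it was -1.57 for Olig1 (adjusted p = 0.036), -1.51 for Olig2 (adjusted p = 0.046), -1.91 for Pdgfra (adjusted p = 0.031) and -2.04 for Gpr17 (adjusted p = 0.013). Over all genes, 0.419% were called lower relative to Chat bacTRAP and 0.605% relative to hTDP-43 WT. In either comparison, limma-voom called no member, nor did edgeR with a block for libraries of the same genotype, age and replicate number. How these calls fared with 1 library left out is given with the comparison itself.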

How the results depend on the processing

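The depletion of the members in MN-TRAP was stable: with each alternative tried, 7 to 9 of 9 members were called lower than in spinal cord (leave-one-out 8 to 9 in hTDP-43 A315T mice, 7 to 9 in hTDP-43 WT mice, 8 to 9 in Chat bacTRAP mice), and no member was called between genotypes or ages in spinal cord. Counts of called members between genotypes in MN-TRAP moved with the processing. The share of all genes called under each alternative is not given in this section, so the counts show only how the number of members moved. Fits without the 4 control libraries that stood apart leave out the lowest Olig2 library of each of their groups. For hTDP-43 A315T relative to Chat bacTRAP at 14 weeks (4), DESeq2 called 7, limma-voom 0, MN-TRAP libraries alone 0, all but the 4 control libraries that stood apart 8, and leave-one-out 1 to 8. Relative to hTDP-43 WT at 14 weeks (4), limma-voom called 2, MN-TRAP alone 0, all but those 4 libraries 7, and leave-one-out 4 to 7. Relative to Chat bacTRAP at 9 weeks (1), no filter gave 0, DESeq2 3, limma-voom 0, MN-TRAP alone 0, all but the 4 libraries 5, all but libraries under 5000000 counts 2, and leave-one-out 0 to 3. Relative to hTDP-43 WT at 9 weeks (2), no filter gave 1, DESeq2 4, limma-voom 0, MN-TRAP alone 0, all but the 4 libraries 7, all but the shallow libraries 4, and leave-one-out 0 to 6. Between hTDP-43 WT and Chat bacTRAP (0 at each age), all but the shallow libraries gave 1 at 14 weeks, all but the 4 libraries 1 at 9 weeks, and leave-one-out 0 to 1 at 14 weeks and 0 to 2 at 9 weeks. With age in MN-TRAP (0), hTDP-43 WT had 1 with DESeq2, 3 without the 4 libraries and 0 to 2 with leave-one-out, and Chat bacTRAP 0 to 2 with leave-one-out.

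For the difference of depletion between hTDP-43 A315T and Chat bacTRAP (2), no filter gave 1, DESeq2 4, limma-voom 0, all but the 4 libraries 8, all but the shallow libraries 6, and leave-one-out 0 to 5. Against hTDP-43 WT (4) limma-voom gave 0, all but the 4 libraries 7, and leave-one-out 0 to 7. Between the control lines (0) it gave 1 without the 4 libraries and 0 to 1 with leave-one-out. The difference of the genotype change between ages (0) gave 1 relative to Chat bacTRAP without the shallow libraries and 0 to 1 with leave-one-out, and 2 relative to hTDP-43 WT without the 4 libraries and 0 to 2 with leave-one-out. Among changes called with or without an alternative, the sign turned for Cspg4 alone: hTDP-43 WT over Chat bacTRAP MN-TRAP at 9 weeks (0.01) came to -4.95 without the 4 libraries and to -5.07 to 0.74 with leave-one-out, the lowest without hTDP-43 WT replicate 3, and 14 over 9 weeks in hTDP-43 WT MN-TRAP (-1.25) to 3.80 without the 4 libraries and -1.97 to 3.84 with leave-one-out, the highest without that replicate. The cause was not tested. Changes that were called in neither fit also turned, among them those relative to Chat bacTRAP at 9 weeks of Olig1 (-0.81), Olig2 (-1.01), Sox10 (-0.92), Myrf (-0.42) and Gpr17 (-0.89), which came to 0.04, 0.01, 0.11, 0.15 and 0.02 without Chat bacTRAP replicate 2.

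The study took each input from the lysate of its MN-TRAP sample, but no label says that equal replicate numbers mark 1 lysate. MN-TRAP and spinal cord libraries of the same number correlated at -0.284 to 0.181 (25 pairs, 6 closest to their own number), and genotypes at -0.276 to 0.399 (51 pairs). Such correlations cannot decide whether the numbers pair the libraries. With the replicate block, 6 and 4 members were called in hTDP-43 A315T relative to Chat bacTRAP and to hTDP-43 WT at 14 weeks, 0 and 1 at 9 weeks, and 0 in each difference of depletion. By Spearman's rho, 10 of 27 nearest genes were shared in MN-TRAP and 10 of 27 in spinal cord. Median-ratio scaling moved the median of all genes by -0.129 to -0.0823 in MN-TRAP over spinal cord and by -0.116 to 0.110 elsewhere. Low depth limits Nkx2-2, Cspg4, Pdgfra and Vcan in MN-TRAP most, and a count of 0 there does not show absence.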

Other observations

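Within the 9 hTDP-43 A315T MN-TRAP libraries, the log2 CPM of Olig1 and Olig2 correlated with the mean log2 CPM of the motor neuron markers at r = 0.90 and 0.84 and that of Pdgfra at -0.90, where the 16 control MN-TRAP libraries had -0.40, -0.78 and -0.53. In hTDP-43 A315T, replicate 3 at 9 weeks held the highest Olig1 (2071 normalized counts) and Olig2 (287) and the lowest Pdgfra (20.2). That library also had the highest GC tilt of the MN-TRAP libraries (1.31). Values of r without it are not given, so its weight in these correlations is not known. The points share library, depth and scaling, and these correlations were chosen after their values were seen. The difference was not tested.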
